A study of Mus musculus with 4 samples.

Results

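Neutrophils are short-lived phagocytes that enter tissue from the blood. Sinusoidal cells, macrophages and hepatocytes of the liver can release CXC chemokines, which bind CXCR2 on neutrophils and draw them in, and neutrophils that arrive carry large amounts of the calcium-binding proteins S100A8 and S100A9. The genes described here are 10 in number, taken from 30204 genes or transcripts on the array: the chemokines Cxcl1 and Cxcl2, the cytokine Il1b, the receptors Cxcr2 and Csf3r, the alarmins S100a8 and S100a9, the surface antigen Ly6g, the collagenase Mmp8 and the resistin-like gene Retnlg. They were picked by symbol with their differences in these same arrays already known, so the values below are a description and no test was made on them. Each gene has 1 probe.

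RNA was from livers of male C57BL/6J mice fed a high-fat diet (HFD) for 24 weeks, with 1 array for each of 4 groups. Drp1LiKO mice carry Drp1 flox/flox with an Alb-Cre transgene, in which the albumin promoter drives Cre in hepatocytes, so that the deletion is aimed at hepatocytes and not at neutrophils. Control (Cont) mice, which the labels call wild type, are Drp1 flox/flox littermates per the study's methods. In the refed pair, Cont and Drp1LiKO mice had 4 h of food after a 17 h fast. The labels name no feeding state for the other Cont and Drp1LiKO arrays, which are read as fasted here from the study's description, and mark these arrays as already part of earlier submissions. The series text names no fasted group, so every value called fasted rests on that reading. The labels give no age and do not say how many mice went into an array.

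Signals are the scanner's background-subtracted intensities, before scaling between arrays. The array-wide 75th percentile of that signal was 461 in Cont fasted, 722 in Drp1LiKO fasted, 357 in Cont refed and 526 in Drp1LiKO refed, and each difference given below was taken on the log2 scale after dividing by it. Between 48.7% and 58.2% of the 43020 gene spots were well above background by the scanner's own flag, and no gene spot was saturated. SEs were computed from the signal errors that the scanner software writes for each spot, so they cover measurement and leave out the spread between mice. A gene was called at a difference of at least 2-fold with the brighter side well above background, and a side that was not well above background was read at the higher of its own level and the lowest level well above background on its array. Dnm1l, the gene of Drp1, differed by -0.21 (SE 0.20) between Drp1LiKO and Cont in the fasted pair and by -0.12 (SE 0.20) in the refed pair. Where its probe lies relative to the deleted part is not known here, so it does not check the labels.

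S100a8, S100a9 and Cxcl1 differed between genotypes in opposite directions in the 2 feeding states. After fasting they were 2.06-fold, 2.16-fold and 2.28-fold lower in Drp1LiKO than in Cont, and after refeeding 1.91-fold, 2.06-fold and 2.27-fold higher. Retnlg was lower in Drp1LiKO in both feeding states, Ly6g differed by less than 1 measurement SE in both, and Cxcl2, Cxcr2 and Mmp8 were not well above background on any array. In whole liver, fewer cells of a type and less RNA per cell cannot be told apart.

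Cxcl1 encodes a chemokine that attracts neutrophils through CXCR2. Its signal was 612 in Cont fasted, 421 in Drp1LiKO fasted, 209.8 in Cont refed and 703 in Drp1LiKO refed. Unscaled, Drp1LiKO refed was the brightest of the 4 arrays and Cont refed the dimmest. After scaling, Drp1LiKO refed and Cont fasted were alike at the top, and the other arrays were alike below them. On the log2 scale the difference between Drp1LiKO and Cont was -1.19 (SE 0.21) in the fasted pair and 1.19 (SE 0.21) in the refed pair. Within Cont, refed was lower than fasted by a log2 difference of -1.18, and within Drp1LiKO it was higher by 1.20. These feeding differences use the same arrays as the genotype differences. The probe lies on chromosome 5 from 91321845 to 91321904 (mm9).

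Cxcl2, the neighbour of Cxcl1 on chromosome 5, encodes a second CXCR2 ligand. Its signal was 7.81 in Cont fasted, 6.76 in Drp1LiKO fasted, 7.85 in Cont refed and 10.3 in Drp1LiKO refed. The lowest signal that was well above background was 27.3, 26.6, 30.5 and 22.5 on the same arrays, so Cxcl2 lay under it on all 4 and has no fold here. Its probe spans 91334534 to 91334593 (mm9).

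The 250 bases before the start of both chemokine genes are shown because one gene was measured on all 4 arrays while its neighbour stayed under the background level. Both are on the plus strand, with sequence from RefSeq (GRCm38.p6), Cxcl1 at chr5:90890995-90891244 and Cxcl2 at chr5:90903649-90903898. Capitals mark matches to GGG, any 2 bases and TTTCC, the letters of a common NF-kappaB site, searched on both strands. No match overlapped another.
Cxcl1: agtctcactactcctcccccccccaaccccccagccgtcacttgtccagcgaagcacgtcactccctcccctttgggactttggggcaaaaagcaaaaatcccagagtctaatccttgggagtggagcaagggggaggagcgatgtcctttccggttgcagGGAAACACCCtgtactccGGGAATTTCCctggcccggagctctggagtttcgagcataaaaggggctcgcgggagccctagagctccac
Cxcl2: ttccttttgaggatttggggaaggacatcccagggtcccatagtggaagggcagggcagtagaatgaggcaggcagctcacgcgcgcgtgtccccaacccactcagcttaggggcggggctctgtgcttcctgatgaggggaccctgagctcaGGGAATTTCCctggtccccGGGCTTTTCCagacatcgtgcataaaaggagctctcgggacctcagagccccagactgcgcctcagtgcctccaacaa
The run GGGAATTTCC stands in both, at position -71 from the start of Cxcl1 and -97 from that of Cxcl2. The other match was at -89 in Cxcl1, on the minus strand, and at -78 in Cxcl2. Of 32851 promoter windows searched in the same way, 464 (1.41%) hold at least 1 match. A match describes the letters of the window and is not a measured binding site.

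Il1b encodes interleukin-1 beta, a cytokine of activated myeloid cells that raises chemokine output in neighbouring cells. Its signal was 135 in Cont fasted, 149 in Drp1LiKO fasted, 114 in Cont refed and 224 in Drp1LiKO refed. Drp1LiKO refed was again the brightest array. The log2 difference between Drp1LiKO and Cont was -0.51 (SE 0.22) in the fasted pair and 0.42 (SE 0.22) in the refed pair, so that the fasted signal, though brighter in Drp1LiKO, was lower once the arrays were scaled. The probe is printed 10 times on each array, with 1 outlier spot left out on each refed array, and the SE of the difference from the spots alone was 0.05 after fasting and 0.09 after refeeding. With normexp background correction the refed difference was 0.16. Within Drp1LiKO, refed was higher than fasted by 1.05, and within Cont by 0.11. The probe lies on chromosome 2 from 129190347 to 129190406 (mm9).

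Cxcr2, the receptor for both chemokines, had a signal of 12.6 in Cont fasted, 16.0 in Drp1LiKO fasted, 8.58 in Cont refed and 6.80 in Drp1LiKO refed. All 4 values were under the background level of their array, and no fold is given. The probe spans 74206886 to 74206945 on chromosome 1 (mm9).

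Csf3r encodes the receptor for granulocyte colony-stimulating factor, which drives the output of neutrophils from bone marrow. Its probe read 40707 in Cont fasted, 46069 in Drp1LiKO fasted, 17998 in Cont refed and 25939.5 in Drp1LiKO refed. That places it between the 96.8 and the 98.5 percentile of gene probes on these arrays, and both refed arrays were dimmer than both fasted ones. The log2 difference was -0.47 (SE 0.20) in the fasted pair and -0.03 (SE 0.20) in the refed pair. Quantile normalization gave -0.15 after fasting.

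The end of this probe, on chromosome 4 from 125721478 to 125721537 (mm9), is shown because other probes carry the same letters. In its last 30 bases, capitals mark the last 18, which are letters of the mouse B1 repeat.
Csf3r probe end: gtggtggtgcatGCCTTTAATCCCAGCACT
All 30 bases recur in a probe for the transcript TC1653005, which read 50717, 55475, 22407 and 34362 in Cont fasted, Drp1LiKO fasted, Cont refed and Drp1LiKO refed. Its log2 difference was -0.52 after fasting and 0.06 after refeeding, against -0.47 and -0.03 for Csf3r. A run of 20 bases of this end also lies in a probe for ENSMUST00000131716, which differed by -0.37 and -0.12 in the same pairs. The last 18 bases also end a probe of Slc10a1, the bile acid uptake carrier of hepatocytes, whose signal of 221987, 251356, 139209 and 176321 on the same arrays exceeded the 5527, 6814, 3870 and 4816 of the Slc10a1 probe without them. The part of shared sequence in the Csf3r values was not tested, and counts and medians over the members are therefore also given without Csf3r.

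**Figure D1:**
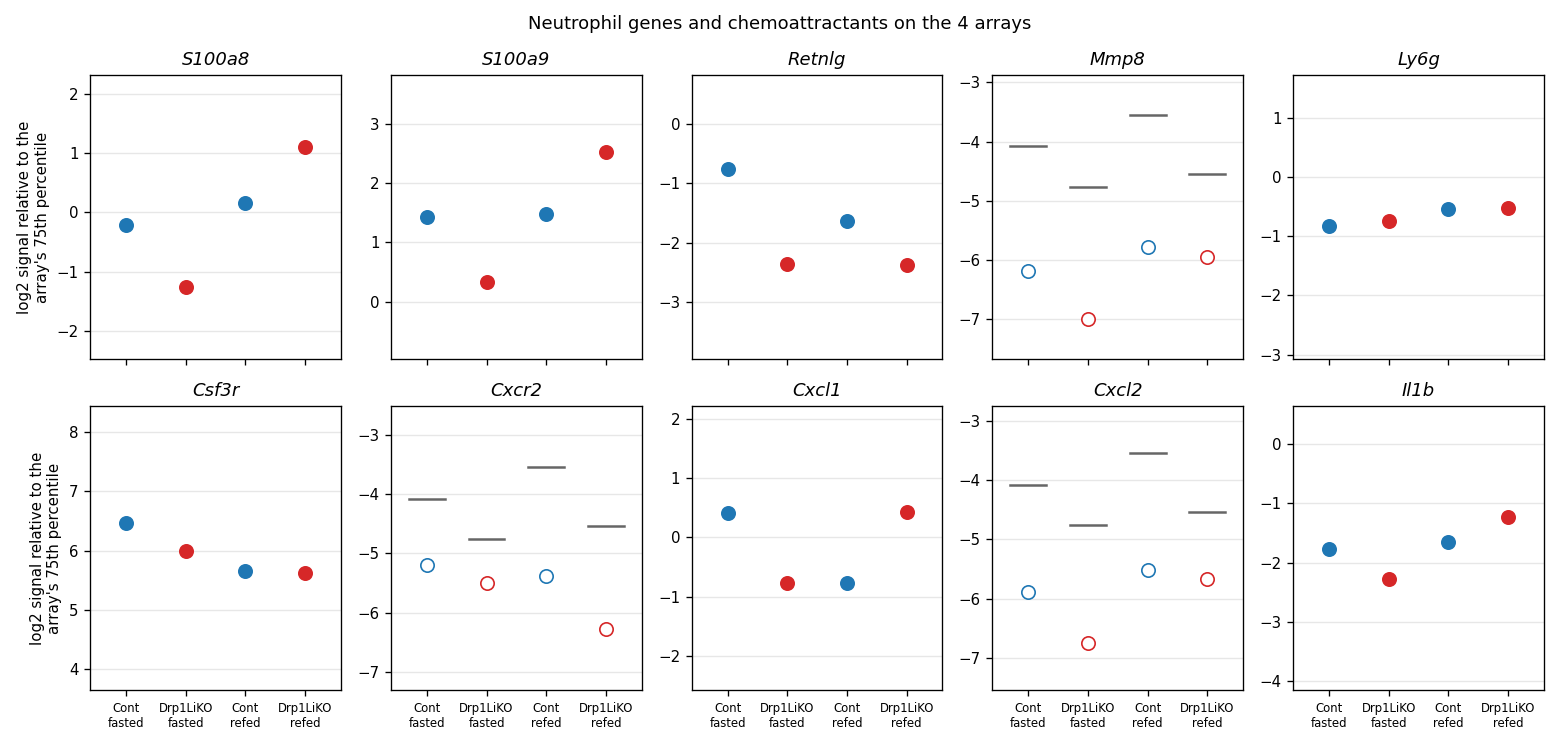
Scaled signal of the 10 genes on each array (y axis, log2 signal relative to the array's 75th percentile), 1 panel per gene and 1 point per array, with no error bars. Panels span the same number of log2 units with different limits, open circles are not well above background, and grey bars mark the lowest level well above background on that array. S100a8 and S100a9 are highest in Drp1LiKO refed, Cxcl1 is as high in Cont fasted as in Drp1LiKO refed, and Cxcl2, Cxcr2 and Mmp8 are open on all 4 arrays.

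S100a8 encodes one chain of calprotectin, the most abundant cytosolic protein of neutrophils, which is also made by some monocytes. Its signal was 396 in Cont fasted, 301 in Drp1LiKO fasted, 399.6 in Cont refed and 1126 in Drp1LiKO refed. The last of these was far above the other arrays, and Drp1LiKO fasted was the lowest. The log2 difference was -1.04 (SE 0.21) after fasting. After refeeding it was 0.94 (SE 0.21), just under 2-fold. The probe spans 90473778 to 90473837 on chromosome 3 (mm9).

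S100a9 encodes the partner chain and lies near S100a8, with its probe from 90496573 to 90496632 on chromosome 3 (mm9). Its signal was 1246 in Cont fasted, 906 in Drp1LiKO fasted, 999.8 in Cont refed and 3035 in Drp1LiKO refed. The order of the Drp1LiKO arrays was that of S100a8. The log2 difference was -1.11 (SE 0.20) in the fasted pair and 1.04 (SE 0.20) in the refed pair. Refeeding went with a 5.13-fold higher level of S100a8 and a 4.60-fold higher level of S100a9 within Drp1LiKO, while within Cont the log2 differences were 0.38 and 0.05.

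Ly6g encodes the surface antigen by which mouse neutrophils are sorted. Its signal was 259 in Cont fasted, 429.8 in Drp1LiKO fasted, 244 in Cont refed and 365 in Drp1LiKO refed. After scaling, the log2 difference was 0.08 (SE 0.21) in the fasted pair and 0.02 (SE 0.21) in the refed pair, with a refed sign that changed between alternative settings (from -0.03 to 0.07). The probe lies on chromosome 15 from 74989023 to 74989082 (mm9) and was assigned to Ly6g through an Ensembl transcript. It shares a run of 28 bases with a probe for ENSMUST00000089689, which the files name as a predicted pseudogene, so the Ly6g signal is uncertain to that extent.
Shared run: CTGTTGCAAGGAAGACCTCTGCAATGCA
That other probe read 168, 342, 139 and 297 in Cont fasted, Drp1LiKO fasted, Cont refed and Drp1LiKO refed, and differed by 0.38 and 0.53 on the log2 scale in the fasted and refed pairs.

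Retnlg encodes a resistin-like secreted protein of bone marrow and mature neutrophils. Its signal was 272 in Cont fasted, 141 in Drp1LiKO fasted, 116 in Cont refed and 102 in Drp1LiKO refed. The brightest array was thus Cont fasted, while S100a8 and S100a9 were brightest in Drp1LiKO refed. The log2 difference was -1.59 (SE 0.21) after fasting, or 3.02-fold lower in Drp1LiKO, and -0.74 (SE 0.23) after refeeding. Its probe spans 48874468 to 48874527 on chromosome 16 (mm9).

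Mmp8, the neutrophil collagenase, read 6.32 in Cont fasted, 5.64 in Drp1LiKO fasted, 6.50 in Cont refed and 8.49 in Drp1LiKO refed, all under the background level. Its probe spans 7568238 to 7568297 on chromosome 9 (mm9).

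Of the 7 genes with a value in the fasted pair, 4 were called lower in Drp1LiKO (S100a8, S100a9, Retnlg and Cxcl1) and 0 higher, where 5.03% of 17946 genes were called lower and 4.31% higher. Their median log2 difference was -1.04, or -1.07 without Csf3r, and that of all genes was -0.06. In the refed pair 2 of the 7 were called higher (S100a9 and Cxcl1) and 0 lower, where 4.03% of 17366 genes were called higher and 6.34% lower. The median was 0.42, or 0.68 without Csf3r, beside -0.02 over all genes. The genes were chosen on these contrasts, so nothing is read from these shares. At 1.5-fold, Retnlg was also lower after refeeding.

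**Figure D2:**
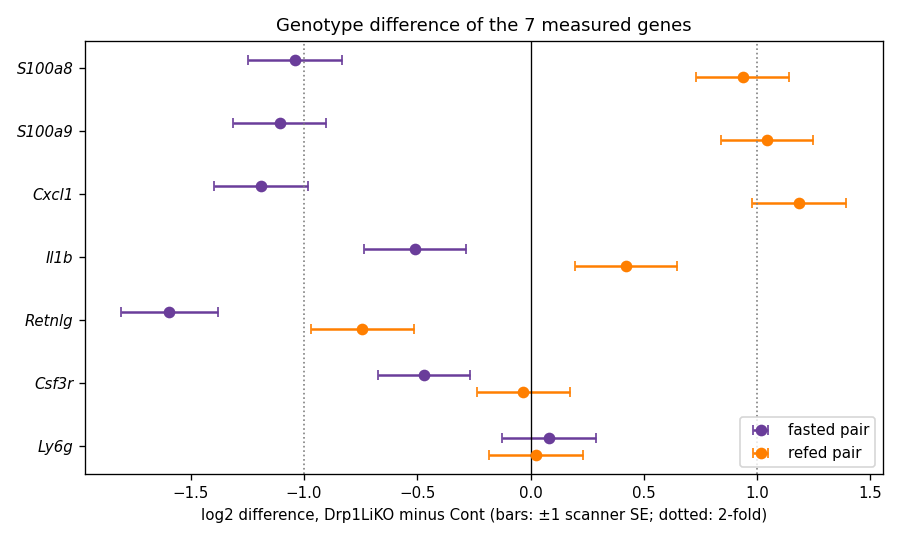
Log2 difference between Drp1LiKO and Cont (x axis) for the 7 genes with a value, in the fasted and the refed pair, with bars of 1 measurement SE from the scanner's error model. S100a8, S100a9 and Cxcl1 lie near -1 after fasting and near 1 after refeeding, Retnlg lies below 0 in both, and Ly6g lies near 0.

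The feeding contrasts use the same arrays on which the genes were chosen, so nothing is read from their shares. Within Drp1LiKO, 4 of the 7 genes were called higher after refeeding (S100a8, S100a9, Cxcl1 and Il1b) and 0 lower, with 4.52% of 18237 genes called higher and 4.74% lower. Within Cont, 0 were called higher and 1 lower (Cxcl1), with 3.47% of 16358 genes called higher and 3.67% lower. The median of the 7 was 1.05 within Drp1LiKO and 0.05 within Cont.

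The refed genotype difference minus the fasted one was 1.98 (SE 0.29) for S100a8, 2.15 (SE 0.29) for S100a9 and 2.38 (SE 0.29) for Cxcl1 on the log2 scale. It was 0.93 (SE 0.32) for Il1b, 0.85 (SE 0.31) for Retnlg, 0.44 (SE 0.29) for Csf3r and -0.06 (SE 0.29) for Ly6g. Of 14387 genes well above background on all 4 arrays, 270 (1.88%) had a difference at least 2-fold higher after refeeding than after fasting, among them S100a8, S100a9 and Cxcl1. A genotype difference below 0 after fasting and above 0 after refeeding was found for 2077 genes (14.4%), and for 69 (0.480%) with both past 2 measurement SEs. Il1b was in the first of these groups and not in the second. There were 9 genes (0.0626%) at least 2-fold lower after fasting and at least 2-fold higher after refeeding, and S100a9 and Cxcl1 were among them. The members were chosen with these differences known, so nothing is read from these shares. Over the scaling, normexp and outlier settings the values ran from 1.81 to 2.08 for S100a8, from 2.07 to 2.26 for S100a9 and from 2.08 to 2.48 for Cxcl1.

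**Figure D3:**
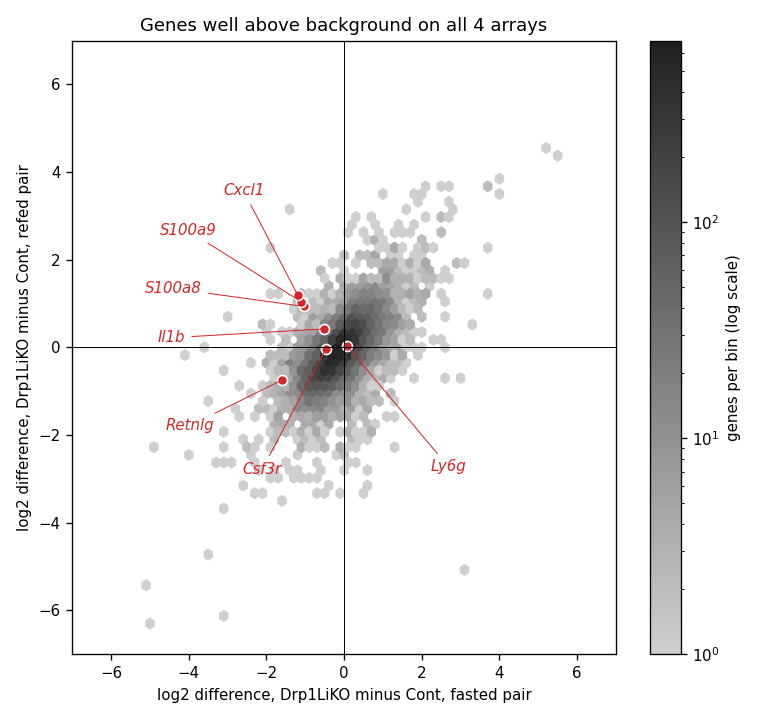
Log2 difference between Drp1LiKO and Cont in the fasted pair (x axis) and the refed pair (y axis) for 14387 genes (each well above background on every array), with bins shaded by the number of genes on a log scale and the 7 genes in red. S100a8, S100a9 and Cxcl1 sit in the upper left, away from the dense centre.

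The genes whose pattern over the 4 arrays was most like that of S100a8 were Lrtm1, Cyp2g1, S100a9, Hpdl and Gm4956, with a root mean square difference between 0.05 and 0.19 on the log2 scale after each gene was centred on its own mean. S100a9 was at rank 3 of 14387 genes. For Cxcl1 they were ENSMUST00000141713, Scn3b, Atp11a, Ddx25 and Klra1, with a difference between 0.16 and 0.20. Only 4 arrays enter this measure. In Drp1LiKO fasted, Cyp2g1 (35.2) and Hpdl (31.3) were close to the lowest signal well above background, 26.6.

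Other genes of neutrophil biology did not all follow S100a8 and S100a9. Among 14 granule and effector genes, Lcn2, which encodes the iron-siderophore carrier lipocalin-2 of granules and of stressed hepatocytes, had a signal of 2565 in Cont fasted, 2499 in Drp1LiKO fasted, 2791 in Cont refed and 13320 in Drp1LiKO refed. It was thus brightest in Drp1LiKO refed, as S100a8 was. Its log2 difference was -0.69 after fasting and 1.70 after refeeding. Over all genes 4.31% were called higher and 5.03% lower after fasting, and 4.03% and 6.34% after refeeding, with medians near 0 in both pairs, and the counts of this and each following list are to be read beside those shares. In this list 0 of 8 genes with a value were called after fasting (median 0.26), and 2 of 12 were called higher after refeeding (Lcn2, and the oxidase subunit Cybb at 1.09), with a median of 0.42. Of the defining granule genes, Elane, which encodes neutrophil elastase, was well above background on all 4 arrays and differed by -0.19 after fasting and -0.25 after refeeding. Ngp and Mmp9 were not well above background on any array. Mpo (47.4), Ltf (49.8), Prtn3 (32.9) and Padi4 (57.4) were so only in Drp1LiKO refed, where the lowest signal well above background was 22.5. That is the array in which S100a8, S100a9 and Lcn2 were brightest, and these genes have a value only through it. Camp, a granule antimicrobial peptide, differed by -0.70 (SE 0.22) after fasting and 0.73 (SE 0.22) after refeeding. Its difference thus changed sign as that of S100a8 did, with both past 2 measurement SEs but under the 2-fold threshold.

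Among 12 surface receptors, 0 of 10 genes with a value were called after fasting (median 0.02), and after refeeding 2 of 11 were called higher and 1 lower (median 0.47). Those called higher were the formyl peptide receptor Fpr2 at 1.34 and the IgG receptor Fcgr4 at 1.14. Cxcr1, a chemokine receptor, was called lower, by a bound of -1.59 (SE 1.46) on the log2 scale, because Drp1LiKO refed was under the background level. It was well above background only in Cont refed, at 46.1 where the lowest such signal was 30.5. Itgam, the integrin chain CD11b, was at -0.88 after fasting and -0.66 after refeeding, while Itgb2, another integrin chain of the list, was at 0.59 and 0.71. Of the receptors with a value, 5 lay above 0 and 4 below after fasting, and 6 above and 4 below after refeeding.

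Among 10 other chemoattractant genes, Cxcl3, Cxcl5 and Cxcl15, which encode further CXC chemokines, were never well above background. Of the 6 with a value in each pair, the fasted arrays had 2 called higher (median 0.02) and the refed arrays 0 (median 0.59). Both were CC chemokines of macrophages, Ccl4 at 1.34 after fasting and 0.60 after refeeding, and Ccl3 at a bound of 1.14 (SE 0.67) after fasting and of 0.96 (SE 0.47) after refeeding. Cxcl1 went the other way after fasting.

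Among 12 cytokine genes of neutrophil supply and recruitment, Csf2, Il1a, Il6, Il17a and Nlrp3 were not well above background on any array, and Csf3, the ligand of Csf3r, was so only in Drp1LiKO fasted. Of the genes with a value, 0 of 7 were called after fasting (median 0.00) and 1 of 6 after refeeding (median 0.33). That gene was Casp1, which encodes the protease that activates interleukin-1 beta, at 0.10 after fasting and 1.26 after refeeding. Among 5 endothelial adhesion genes, Icam1 and Vcam1, to which leukocyte integrins bind, were called higher in Drp1LiKO after fasting. Icam1 was at 1.63 (SE 0.38), with its Cont fasted signal not well above background, and Vcam1 was at 1.05. After refeeding they were at 0.75 and 0.37, and 0 of the 4 genes with a value were called. Among 5 granulocyte differentiation genes, 4 had a value and 0 were called in either pair, with a median of -0.33 in both. In each pair 3 of them lay below 0 and 1 above. The latter was Spi1, at a bound of 0.44 (SE 0.43) after fasting and 0.12 (SE 0.33) after refeeding. Which cells of whole liver gave these signals was not tested.

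Markers of other cells in whole liver moved beside these genes. The summed scaled signal of 10 Kupffer cell and macrophage markers was 106 in Cont fasted, 121 in Drp1LiKO fasted, 118 in Cont refed and 203 in Drp1LiKO refed, in multiples of the array's 75th percentile. All 10 were well above background on all 4 arrays, 7 of 10 lay above 0 after fasting and 10 of 10 after refeeding, where they ran from 0.24 to 1.61. Marco, a macrophage scavenger receptor, was called higher in both pairs, at 1.65 and 1.61. Of 6 monocyte markers on the array, 2 of 5 with a value were called higher after fasting and 4 of 6 after refeeding, among them Lyz2 at 1.38 and 1.53 and Cx3cr1 at 1.82 and 1.06. The summed signal of the 4 markers well above background on all arrays was 3.81, 7.84, 5.20 and 12.6 on the arrays in the same order. Of the monocyte markers not called after fasting, Plac8 was at 0.90, Chil3 at 0.10 (SE 0.24) and Ccr2 at a bound of 0.56, and F13a1 had no fasted value. The part of macrophage and monocyte markers in the S100a8, S100a9, Il1b and Cxcl1 differences was not tested.

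Blood content was read from 6 platelet and erythroid markers, all of them well above background on at least 1 array. The summed scaled signal of the 4 that were so on all arrays, most of it from the globin genes, was 174 in Cont fasted, 98.8 in Drp1LiKO fasted, 207 in Cont refed and 199 in Drp1LiKO refed. The globin genes Hba-a1 and Hbb-b1 were at -0.79 and -0.83 after fasting and at 0.05 and 0.04 after refeeding. Alas2, an erythroid heme synthesis gene, was at -0.97 after fasting and was called lower after refeeding at -1.29, where the globin genes were near 0. Pf4, a platelet chemokine, was at 0.39 after fasting and 0.38 after refeeding. The fasted Drp1LiKO array was thus low in the erythroid genes and in S100a8, S100a9 and Retnlg, and not in Pf4, and the part of blood content in those differences was not tested.

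Of 7 neutrophil markers, the 5 well above background on all arrays summed to 93.1, 66.3, 55.3 and 58.2 in Cont fasted, Drp1LiKO fasted, Cont refed and Drp1LiKO refed, and most of that sum was Csf3r. The 4 others (S100a8, S100a9, Ly6g and Retnlg) summed to 4.72, 2.46, 4.93 and 8.80 on the same arrays, most of it from S100a8 and S100a9. The log2 ratio of Drp1LiKO to Cont was -0.49 after fasting and 0.07 after refeeding with Csf3r, and -0.94 and 0.84 without it. The ratios without Csf3r thus mostly repeat S100a8 and S100a9. Ly6g alone was at 0.08 and 0.02, and Retnlg at -1.59 and -0.74. Cxcr2 and Mmp8, which mark mature neutrophils, were not well above background on any array, nor were Ngp, Mmp9 and Cd177.

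**Figure D4:**
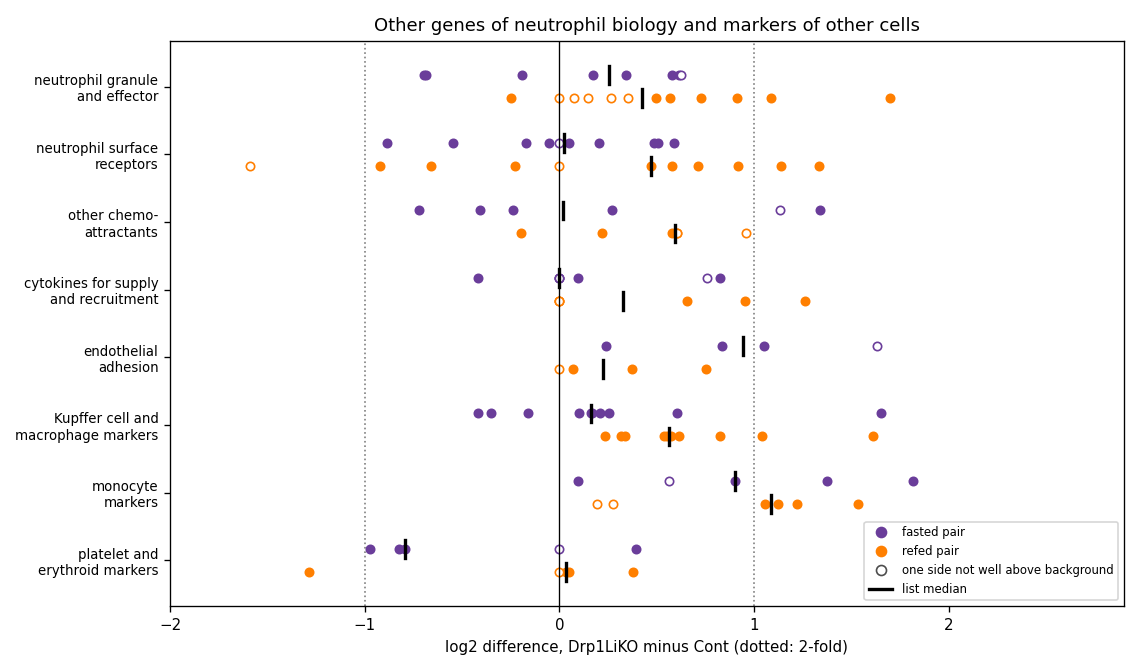
Log2 difference between Drp1LiKO and Cont (x axis) for other genes of neutrophil biology and for markers of other cells, 1 point per gene, with black bars at the list median, dotted lines at 2-fold and open circles where 1 side was not well above background. Lcn2 is the rightmost refed point of the granule genes at 1.70, and all 10 Kupffer cell and macrophage markers lie above 0 after refeeding.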

How the data were processed

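Liver RNA of 4 groups was hybridized to 4 one-color Agilent 44K v2 mouse arrays, all on 1 slide and in 1 scan. The deposited intensity values are processed signals of Feature Extraction, background-subtracted within each array by the authors' scanner software and not normalized between arrays (version 10.7.1.1 in the file headers, 9.5.1.1 in the submitters' processing notes). A deposited matrix of normalized intensity values from the authors served as an alternative. The study's methods name another array and RNA kit than the labels, and the file headers carry the array of the labels.

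Signals were taken to log2 relative to the array's 75th percentile over gene spots. Outlier spots were left out, which removed 37 of 39429 probes, and repeated spots were averaged. For genes with several probes, the probe well above background on most arrays, then the brightest, was used. Genes were named as in the files. Of the member probes, 9 of 10 carry a RefSeq accession of the same symbol, and positions are on mm9. The spread between mice cannot be estimated with 1 array per group. A probe was said to share sequence with another at 20 or more bases in a row, and for Csf3r its last 18 bases were also searched.

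The members, the gene lists and the markers were chosen with earlier results of these data known. Named from the lists were up to 4 genes called the same way in both pairs or, with none, the gene with the largest called difference. Fpr2, Fcgr4, Cybb, Camp, Itgam, Ccl3, Vcam1, Elane, Plac8, Chil3, Ccr2, F13a1, Pf4, Hba-a1, Hbb-b1, the genes under background and, in the closing section, Cd3d, Cd3e, Nkg7 and Tat were named after their values were seen. So were Mpo, Ltf, Prtn3, Padi4, Itgb2, Spi1, Alb, Serpina1c and Dcn. A gene of the receptor list is not reported here. In list medians, a gene whose bound gave no fold counted as 0. With 1 array per group no test between groups was made. The alternatives were median scaling, quantile normalization, normexp with an offset of 50, the authors' matrix, the median over probes, the measured difference without the bound, genes well above background on all 4 arrays, outlier spots kept, and a 1.5-fold threshold. Leaving out Csf3r, from the members and from the summed neutrophil markers, was an alternative chosen after seeing the data. Computations used numpy 2.4.6 and pandas 2.3.3 under Python 3.11.15, limma 3.58.1 under R 4.3.3 for normexp, and matplotlib 3.10.9 for plots.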

Additional observations from a re-analysis of the deposited data

Results flagged for a closer look

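S100a8, S100a9 and Cxcl1 had genotype differences of opposite sign in the 2 feeding states, each past 2 measurement SEs, lower in Drp1LiKO after fasting and higher after refeeding. The refed difference minus the fasted one was 1.98 for S100a8, 2.15 for S100a9 and 2.38 for Cxcl1 on the log2 scale. With 1 array per group the difference between feeding states was not tested, and the 3 genes were chosen with these values known. Il1b was also opposite in sign, at -0.51 and 0.42, but its refed difference was under 2 measurement SEs.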

How the results depend on the processing

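No paired analysis was possible because each group has 1 array, and for the same reason no replicate could be left out. In the refed pair the median of the members was 0.42, and it was 0.16 with normexp background correction and 0.68 without Csf3r, the latter chosen after seeing the data. At a 1.5-fold threshold 1 member (Retnlg) was lower after refeeding, against 0 at 2-fold. The other counts of members called stayed within 1.5 times under every alternative, with 3 called lower after fasting under normexp, where S100a8 was at -0.90. Of the differences of single members under the alternatives, 108 moved by less than their measurement SE and 4 by more: Csf3r after fasting, at -0.15 by quantile normalization and by the authors' matrix, Il1b after refeeding, at 0.16 with normexp, and Retnlg after fasting, at -1.24 with normexp. The cause was not tested. The refed differences of Ly6g (-0.03 to 0.07) and Csf3r (-0.03 to 0.09) changed sign within their SE. Quantile normalization and the authors' matrix moved the fasted median of all genes by 0.10. Calls over all genes after fasting numbered 1676, with 866 under normexp and 4246 at 1.5-fold, and after refeeding 1800, with 985 and 4409. Signals near background limit Cxcl2, Cxcr2 and Mmp8.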

Other observations

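Of 6 eosinophil, basophil and mast cell markers, 5 were not well above background on any array. Prg2, an eosinophil granule protein, was so in Drp1LiKO refed, where its log2 difference was a bound of 2.60 (SE 1.44). Of 5 B cell and plasma cell markers, Jchain, the joining chain of secreted antibodies, was called higher in Drp1LiKO after fasting at 1.19 and was at 0.53 after refeeding. Of 6 T cell and NK cell markers, Cd3g, a chain of the T cell receptor complex, was called higher in Drp1LiKO after fasting. It was at 1.16 (SE 0.45) after fasting and 0.80 (SE 0.37) after refeeding, with its Cont signal not well above background in either pair. Cd3d, another chain, was at 0.98 and 1.07. Cd3e (-0.67 and -0.64) and Nkg7 (-0.31 and -0.34), both well above background on all 4 arrays, were lower but not called, and the summed signal of the 4 markers measured on all arrays differed by -0.30 and -0.33.

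Among resident cells, the summed scaled signal of 6 hepatocyte markers was lower in Drp1LiKO by a log2 difference of -0.50 after fasting and -0.52 after refeeding, with 4 of 6 below 0 in both pairs. The others were Cps1, a urea cycle enzyme, at 0.60 and 1.24, and Tat, an amino acid catabolic enzyme, at 1.04 and 0.98. Most of the sum was Alb and Serpina1c. Unscaled, Alb read 398463 in Cont fasted, 435653 in Drp1LiKO fasted, 380831 in Cont refed and 382978 in Drp1LiKO refed. Serpina1c read 327188, 332564, 323375 and 321960 on the same arrays, so the lower sum largely rests on the scaling by the 75th percentile. The 5 endothelial markers summed to differences of -0.26 and -0.56, and 0 of them were called. Of 5 stellate cell markers, Col1a1, a chain of type I collagen, was called higher after fasting at 1.67 and was at -0.02 after refeeding. After fasting 3 of the 5 lay above 0 and 2 below. The summed signal of the 4 measured on all arrays differed by 0.51 and 0.20, but most of that sum was Dcn, which alone was at 0.50 and 0.20. Of 4 cholangiocyte markers, Sox9, a transcription factor of bile duct cells, was called higher in both pairs. It was at 1.24 after fasting and 1.67 (SE 0.37) after refeeding, where its Cont signal was not well above background. Alas2, the heme synthesis enzyme of red cell precursors, was at -0.97 after fasting and was called lower after refeeding at -1.29.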
